A study of Homo sapiens with 26 samples.

Results

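The mucin genes described here are MUC1, MUC2, MUC4, MUC5AC, MUC5B, MUC6, MUC13, MUC16, MUC17 and MUC20, 10 of the 41078 genes of the deposited table. They were taken by name, and each matched 1 Ensembl identifier of the table (ENSG00000185499, ENSG00000198788, ENSG00000145113, ENSG00000215182, ENSG00000117983, ENSG00000184956, ENSG00000173702, ENSG00000181143, ENSG00000169876, ENSG00000176945, in this order). Their levels were followed in 26 single cell-derived cell lines (SCDCLs), clones that grew from single cells after limited dilution of BxPC3 or Panc1, established lines of pancreatic ductal adenocarcinoma. Of these SCDCLs, 12 were labelled BxPC3 and 14 were labelled Panc1, with 1 mRNA library each and none repeated, so that the clone and its library cannot be told apart. Every sample was labelled with gemcitabine as treatment, whereas the methods describe gemcitabine only in separate viability assays, and no library was labelled as untreated. The libraries held polyadenylated RNA, kept the strand and were sequenced from both ends.

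Mucins are large glycoproteins whose repeated stretches rich in serine and threonine carry dense O-linked sugar chains. The secreted mucins MUC2, MUC5AC, MUC5B and MUC6 form the gel of mucus, whereas MUC1, MUC4, MUC13, MUC16, MUC17 and MUC20 are anchored in the cell membrane. In the healthy pancreatic duct mucin expression is limited, and MUC1, MUC4, MUC5AC and MUC16 (which carries the CA125 antigen) are well known in ductal adenocarcinoma.

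The labels of the lines did not order these libraries. SMAD4, the shared signal transducer of the TGF-beta pathway, is deleted in BxPC3 and kept in Panc1. Its level was at most 0.04 TPM (a level per transcript length, scaled so that each library has the same sum) in 12 libraries, 7 labelled Panc1 and 5 labelled BxPC3, and between 28.1 and 52.2 TPM in the other 14 libraries, 7 of each label. In 7 libraries labelled BxPC3 and 7 labelled Panc1 the gene thus went against the label, and labels are given below only as labels. No library lay near the 1 TPM that separates these sides. The mucin genes are therefore given for the 12 libraries with SMAD4 under 1 TPM and the 14 libraries with SMAD4 of at least 1 TPM. These sides come from a measured gene and not from the labels, and no test was made between them.

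The sides differed in ductal and mesenchymal markers too. Of 6 ductal markers, EPCAM, KRT7 and CDH1 were higher on the SMAD4-low side with no overlap, with CDH1 at 90.8 to 198 TPM against 0.34 to 7.74 TPM. The ranges of KRT8, KRT18 and KRT19 overlapped. Among all 19292 genes with at least 10 deposited counts in a library, 13.2% did not overlap by TPM in each direction. Of 4 mesenchymal markers, VIM and ZEB1 were higher on the other side, with VIM at 1.42 to 73.2 TPM against 3047 to 4526 TPM, whereas FN1 was higher on the SMAD4-low side. Markers of other cell types stayed low, with PTPRC at most 0.53 TPM and PRSS1 at most 0.95 TPM, except the leukocyte marker CD68 at 5.27 to 26.9 TPM against 42.5 to 141 TPM, the endothelial marker PECAM1 at 0.90 to 6.07 TPM against 0.32 to 5.38 TPM and the fibroblast marker COL1A1 at 8.92 to 26.5 TPM against 2.06 to 38.5 TPM. Ranges did not overlap for CD68 and for VWF, the other endothelial marker, which was at 0.03 to 0.47 TPM against 0 to 0.01 TPM. Taking both directions together, 26.3% of all genes with at least 10 deposited counts in a library did not overlap. The part of these differences in the mucin levels was not tested. The total was 27035724 to 34945608 estimated counts per library.

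MUC1 had its high levels where SMAD4 was present, and MUC2, MUC13, MUC4 and MUC20 had nearly all of their reads where it was not. The 250 bases before the RefSeq transcription starts of MUC1, MUC13 and MUC4 (GRCh38.p14, minus strand) are shown, 5′ to 3′, as examples from both directions whose windows hold motif matches. Capitals mark matches, on either strand, to CACCTG (an E-box bound by ZEB1 and SNAI proteins), GGGCGG (the GC box), GTTAAT (an HNF1 motif), AGATAA (a motif of the factors GATA4 and GATA6) and TATAAA (a core promoter element).

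MUC1, chr1:155192916-155193165: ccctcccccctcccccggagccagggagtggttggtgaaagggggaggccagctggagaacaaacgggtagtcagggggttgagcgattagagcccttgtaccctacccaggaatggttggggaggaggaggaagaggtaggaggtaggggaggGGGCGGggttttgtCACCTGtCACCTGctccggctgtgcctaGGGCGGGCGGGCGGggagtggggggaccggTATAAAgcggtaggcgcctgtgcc

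MUC13, chr3:124934752-124935001: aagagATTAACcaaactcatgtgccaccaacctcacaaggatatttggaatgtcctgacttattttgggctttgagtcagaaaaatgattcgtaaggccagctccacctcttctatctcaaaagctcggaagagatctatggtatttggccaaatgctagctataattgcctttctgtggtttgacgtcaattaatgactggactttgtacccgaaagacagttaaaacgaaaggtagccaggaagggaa

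MUC4, chr3:195811930-195812179: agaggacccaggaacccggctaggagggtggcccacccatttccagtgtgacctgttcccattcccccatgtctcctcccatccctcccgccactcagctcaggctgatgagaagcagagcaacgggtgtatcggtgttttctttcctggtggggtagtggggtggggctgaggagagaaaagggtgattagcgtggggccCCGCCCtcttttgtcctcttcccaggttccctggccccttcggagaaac

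The MUC1 window held 2 matches to CACCTG, 4 to GGGCGG, of which 3 overlap each other, and 1 to TATAAA. The MUC13 window held 1 match to GTTAAT and the MUC4 window 1 to GGGCGG. Over the 35116 promoter windows of this length, 17.5% held CACCTG, 42.6% GGGCGG, 6.23% GTTAAT, 9.17% AGATAA and 10.7% TATAAA. Windows were at hand for 6 of the 10 genes. Among the other 3, MUC16 held 1 match to GGGCGG, and MUC2 and MUC17 held none of the 5 motifs. A match is a run of letters and not a measured binding site.

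Mucin transcripts hold repeats, and whether these bear on how reads were assigned to genes was not tested. In the GENCODE 44 canonical transcripts, 42.8% of the 31-base words of MUC4 occurred more than once in the transcript, as did 36.4% for MUC5B, 30.9% for MUC5AC, 23.9% for MUC20, 22.98% for MUC17, 6.92% for MUC6, 3.61% for MUC16, 1.26% for MUC13 and none for MUC1. For MUC2 the share is not given, since the canonical transcript has 4209 bases whereas the effective length in the table was 16674 to 17019 bases, so the transcript used for MUC2 was a longer one. The repeat of MUC20 is short enough to print. Its most common unit of 57 bases occurred 10 times without a change, first at chr3:195725148-195725204 (plus strand, GRCh38) in the coding part of exon 2 of 4.

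MUC20 repeat unit: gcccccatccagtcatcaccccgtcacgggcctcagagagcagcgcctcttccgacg

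For MUC20, 81.1% of the 31-base words also occurred in transcripts of other genes, 59.6% in the pseudogene MUC20P1 and 42.3% in MUC20-OT1. With these shared words, reads of MUC20 and MUC20P1 cannot be fully told apart. MUC20P1 was at 0 to 0.47 TPM on the SMAD4-low side and at 0 in all 14 other libraries. For the other genes, MUC2 apart, at most 1.67% of the words were shared with another annotated gene. This search left out the rows of the deposited table that the annotation does not name. Such rows shared reads with MUC4, MUC5AC and MUC6, as given below, so this share is not a limit on the reads shared in the table.

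The lengths behind the TPM values also varied. MUC1 has 26 annotated transcripts of 177 to 1811 bases, and the effective length that the table gives for MUC1 ran from 104 to 1053 bases between libraries, since it is weighted by the transcripts estimated to be present. TPM divides by this length. Read pairs were therefore recovered as TPM times the effective length of the library, scaled to the library total, and are given beside TPM. Their error is the SD over the 30 repeat estimates that the authors deposited for each library, each made by kallisto on reads redrawn from that library. It covers counting and assignment of reads only.

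Of the 10 genes, 4 shared reads with 1 further row of the table that the annotation does not name. In the 780 repeat estimates of all libraries, centred within each library, MUC5AC and MUC6 moved exactly together with such a row (Pearson's r = 1.0 each), with equal values in both. MUC2 and MUC4 moved against such a row (r = -0.43 and r = -0.71), so that reads given to the gene in 1 repeat went to the row in another. The nearest other row was at r = -0.27 for MUC2 and r = -0.25 for MUC4. These rows are ENSG00000283158 for MUC5AC, ENSG00000283350 for MUC6, ENSG00000278466 for MUC2 and ENSG00000276613 for MUC4. They are not members, and values with them added are named as such. For MUC1, MUC5B, MUC13, MUC16, MUC17 and MUC20 no row passed this mark.

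**Figure D1:**
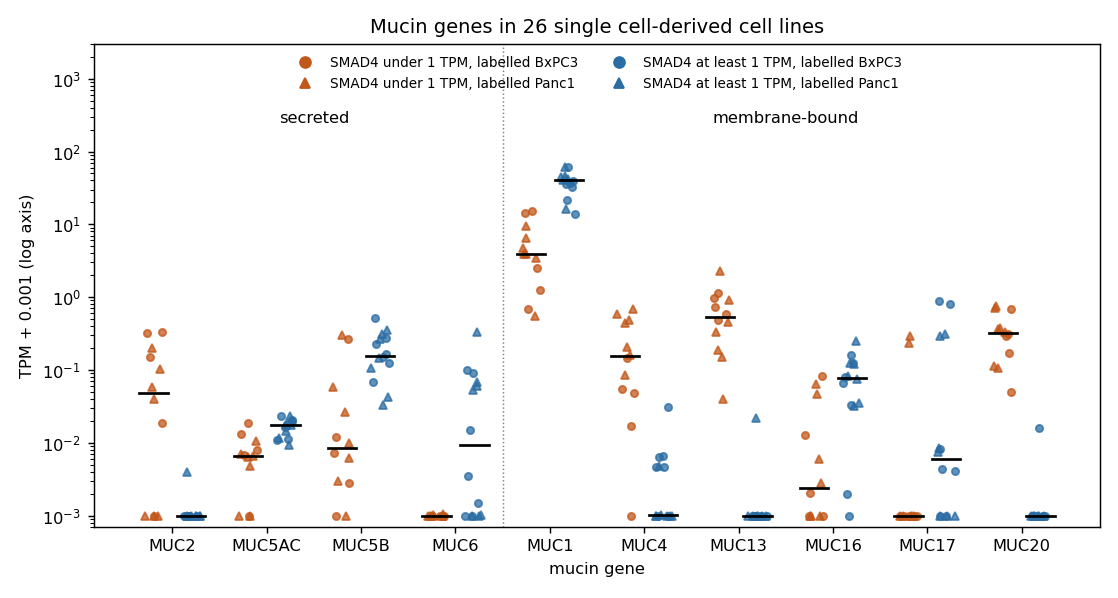
TPM of the 10 mucin genes (y axis, TPM plus 0.001 on a log axis, so that 0 lies at the bottom) in 26 libraries, by side of the SMAD4 level (colour) and label (shape). Each point is 1 library and each bar the median of 12 or 14 libraries. MUC1 has the highest median on both sides, 3.88 and 40.05 TPM, and MUC13 and MUC20 are near 0 in the blue libraries.

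Most mucin genes were scarce in these cells. Taken alone, only MUC1 and MUC13 reached 1 TPM in any library, and only MUC1 had a median of at least 1 TPM on a side. With its further row added MUC4 reached 1 TPM too, at 1.49 TPM in library 3, 1.40 in library 5 and 1.04 in library 6. Its median on the SMAD4-low side was then 0.49 TPM. Without the further rows, 6 of the 10 genes reached 0.5 TPM, and 8 reached 10 read pairs in a library. All 10 reached 10 deposited counts, since these counts are rescaled by mean length. For MUC17 the highest deposited value of 61.9 counts, in library 20, rested on 3 read pairs.

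Ranges of TPM did not overlap between the sides for 2 of the 10 genes, MUC13 and MUC20, both higher where SMAD4 was low. Among all 19292 genes with at least 10 deposited counts in a library, 26.3% did not overlap, and 13.2% did so in this direction. By read pairs, set against the library total, MUC1 joined them, lower where SMAD4 was low, giving 3 of the 10 genes against 29.4% of all these genes and 29.8% of genes with at least 10 read pairs in a library. With the further rows added MUC2 joined as well, giving 4. Among genes with a median of at least 1 TPM on a side, 31% did not overlap by TPM and 34.5% by read pairs. The share among the mucin genes was near that of all genes. In bulk RNA, fewer cells with a transcript and less of it per cell cannot be told apart.

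MUC1, the widely expressed transmembrane mucin of glandular epithelium, lies at chr1:155185824-155192916 on the minus strand. On the SMAD4-low side its level was 0.550 TPM at the lowest, 3.88 at the median and 15.4 at the highest (n = 12). On the other side it was 14.04, 40.05 and 61.4 TPM (n = 14), a difference of medians of -3.07 on the log2(TPM + 1) scale. The ranges touched, since library 22 with SMAD4 (14.04 TPM) lay below libraries 24 and 25 without it (15.4 and 14.1 TPM). Without library 22 they did not overlap.

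The reads behind these levels were apart. MUC1 had 10.5, 31.6 and 55.5 read pairs (lowest, median, highest) on the SMAD4-low side and 128, 238 and 301 on the other, with no overlap. Libraries 24 and 25 reached 15.4 and 14.1 TPM with 30.2 ± 6.14 and 31.4 ± 6.46 read pairs (SD over 30 repeat estimates), because their effective lengths were 104 and 109 bases, below that of every other library. Library 22 had 128 ± 17.7 read pairs at an effective length of 426 bases. The mean of the repeat estimates of MUC1 lay under the estimate itself in 24 of 26 libraries, at 84.6% of it at the median. The order of the sides did not depend on this, since these means did not overlap either.

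**Figure D2:**
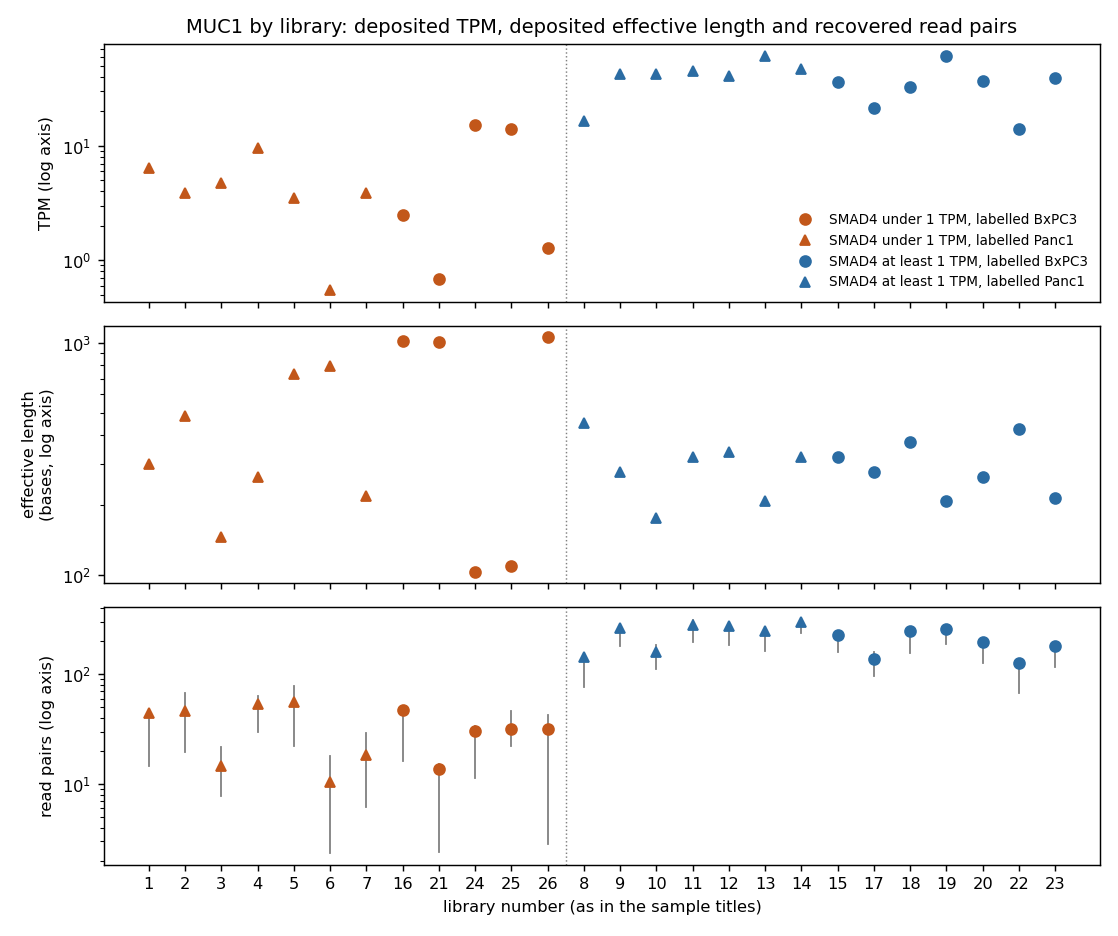
MUC1 in each library as deposited TPM (top), deposited effective length in bases (middle) and recovered read pairs (bottom), all on log axes. Grey lines span the lowest to highest of 30 repeat estimates. TPM of libraries 24 and 25 meets that of the blue libraries at effective lengths of 104 and 109 bases, whereas read pairs of the sides stay apart, at most 55.5 against at least 128.

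MUC13, a membrane mucin of gastrointestinal epithelium (chr3:124905442-124953819, minus strand), was measured in all 12 libraries with low SMAD4. It had 2 read pairs at the lowest, 26.5 at the median and 116 at the highest, or 0.04, 0.53 and 2.27 TPM. It was at 0 in 13 of the other 14 libraries and had 1 read pair in library 14. Over the sides this made 381 read pairs against 1. Library 4 stood highest with 116 ± 10.7 read pairs. Library 3, with 2 ± 1.33 read pairs, and library 14, with 1 ± 1.28, differed by less than these SDs, so the gap between the sides rests on few reads there.

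MUC20, a membrane mucin known to bind the receptor MET (chr3:195720884-195741123, plus strand), showed the same division at a lower level. It had 4.50, 13.1 and 40.4 read pairs on the SMAD4-low side, or 0.05, 0.32 and 0.75 TPM. On the other side it was at 0 in 12 of 14 libraries and reached at most 1.65 read pairs. These zeros are not firm, since the mean of the repeat estimates was above 0 in all 26 libraries. The SD was 89.5% of that mean at the median library. These means, set against the library total with TMM factors, did not overlap between the sides. The highest libraries were 3 and 2, both labelled Panc1, and neither was high in MUC13, at 2 and 9 read pairs.

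MUC4, a membrane mucin that binds the receptor ERBB2, lies 5.64 kb from MUC20 on the opposite strand (chr3:195746765-195811973). On the SMAD4-low side it had 0 read pairs at the lowest, 25.2 at the median and 103 at the highest, and on the other side at most 0.67. Libraries 25 and 26, at 0 and 0.11, lay within the range of the other side. With the further row added, the values were 0.22, 48.1 and 163 read pairs against at most 1, and library 26 at 0.22 was then the only SMAD4-low library within the range of the others.

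Among the 12 SMAD4-low libraries MUC4 also differed in range between the labels. Taken alone, it had 22.4, 40.3 and 103 read pairs (lowest, median, highest) in the 7 libraries labelled Panc1, and 0, 0.71, 7.77, 2.50 and 0.11 read pairs in libraries 25, 24, 16, 21 and 26 labelled BxPC3, with no overlap. Of all genes with at least 10 read pairs in 1 of these libraries, 0.685% were apart by label in read pairs and 0.359% in this direction. In TPM, where 0.601% and 0.298% of them were apart, MUC4 overlapped, at 0.08 TPM in library 7 and 0.15 TPM in library 21. The log2 fold change was 2.80 by edgeR's quasi-likelihood test on the deposited counts (Panc1 over BxPC3, p = 0.00187, adjusted p = 0.404) and 4.29 on read pairs (adjusted p = 0.437). It did not pass the test across all genes, in which 0 genes passed, and 11.4% (10.8% on read pairs) had an unadjusted p under 0.05. Leaving out each library in turn gave an adjusted p of 0.209 to 0.696 on deposited counts by this test. MUC1, MUC2, MUC13 and MUC20, the other members tested here, had adjusted p of 0.626 to 0.889.

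The further row changed this contrast. Library 24 gained 78.1 read pairs from it, library 21 gained 26.6 and library 25 gained 15.1. With it added, the libraries labelled Panc1 had 26.7, 114 and 163 read pairs and those labelled BxPC3 had 0.22 to 78.8 with a median of 17.8. The ranges then overlapped, the log2 fold change was 1.68 and the adjusted p was 0.459 by edgeR's quasi-likelihood test. The error of MUC4 alone was large too. In library 3 its 103 read pairs had an SD of 38.3, and the sum with the further row, 163 read pairs, had an SD of 19.3. The mean of the repeat estimates of MUC4 alone lay under the estimate itself in 6 of the 7 libraries with at least 10 read pairs. It was at 79.4% of the estimate at the median.

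**Figure D3:**
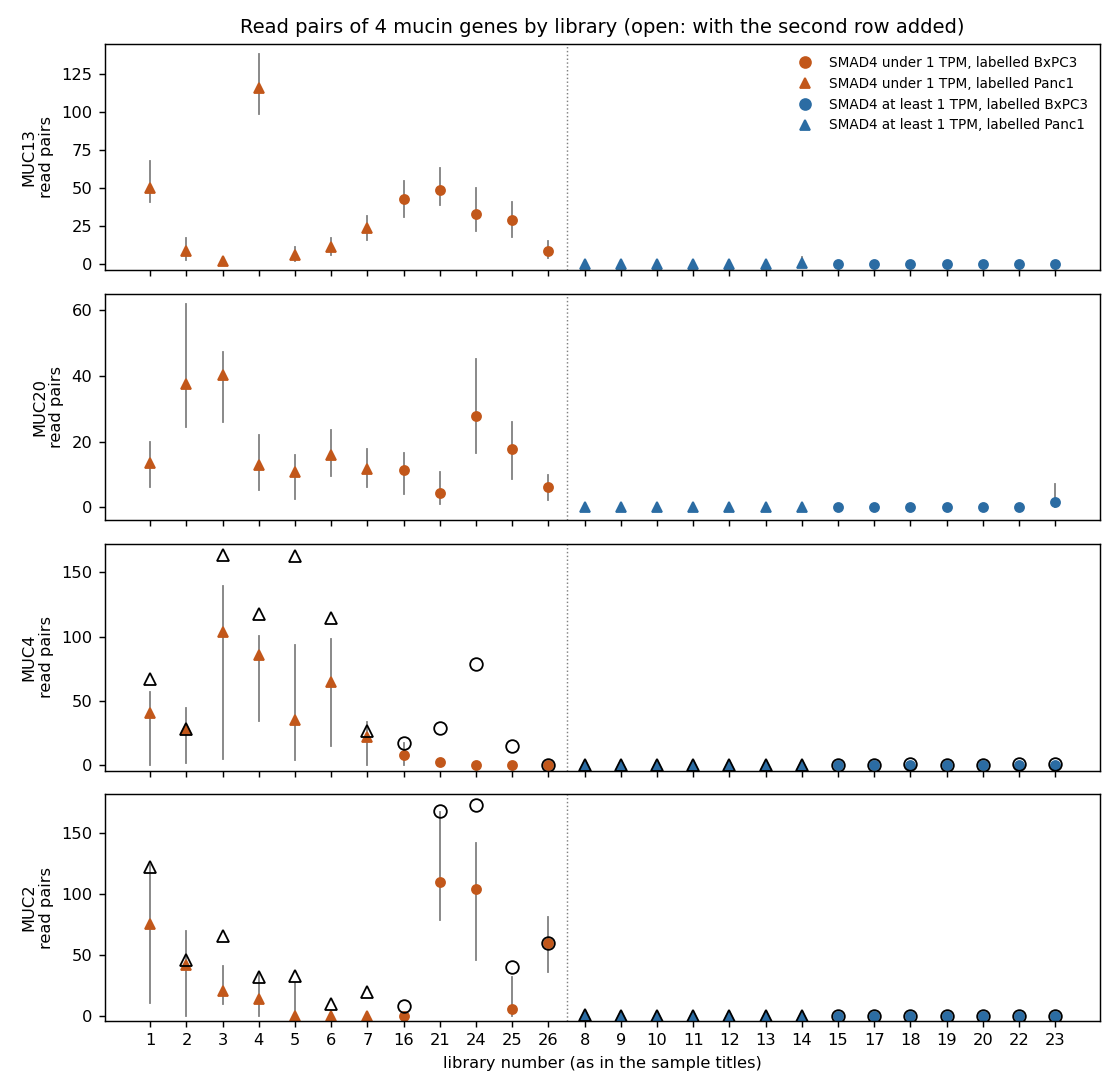
Read pairs of MUC13, MUC20, MUC4 and MUC2 by library (filled symbols) with the range of 30 repeat estimates (grey lines). Open symbols add the unnamed row that shared reads with MUC4 or MUC2. The blue libraries lie at or below 1.65 read pairs for all 4 genes, and with the open symbols MUC2 is above 8 read pairs in all 12 SMAD4-low libraries.

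MUC16, the largest of the membrane mucins (chr19:8848844-9010390, minus strand), was more often measured where SMAD4 was present. It had 0, 1.5 and 9 read pairs on the SMAD4-low side and 0, 17.5 and 105 on the other, and the ranges overlapped. Library 12, labelled Panc1, was highest with 105 ± 11.2 read pairs, followed by library 23, labelled BxPC3, with 58.0. At its length this was at most 0.25 TPM.

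MUC17, an intestinal membrane mucin (chr7:101020072-101058859, plus strand), never exceeded 4 read pairs. Its highest TPM, 0.88 in library 20, came from 3 read pairs at an effective length of 170 bases. MUC17 was at 0 in 10 of 12 SMAD4-low libraries and in 5 of the other 14, and its read pairs added up to 2 and 19.

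The secreted mucins lie side by side on chromosome 11, with MUC6, MUC2, MUC5AC and MUC5B separated by 38.2, 47.4 and 21.9 kb. They did not follow the same pattern across libraries.

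MUC2, the gel-forming mucin of intestinal goblet cells (chr11:1074875-1110511, plus strand), was measured on the SMAD4-low side alone, apart from 1 read pair in library 8. It had 0, 16.9 and 110 read pairs, or up to 0.33 TPM, and was at 0 in libraries 5, 6, 7 and 16. These zeros were not empty of reads. The further row held 33.0, 10.1, 19.7 and 8.52 read pairs in these libraries. With it added, the 12 libraries had 8.52, 43.3 and 173 read pairs, and the other 14 at most 1, with no overlap. Libraries 24 and 21, labelled BxPC3, and library 1, labelled Panc1, were highest with 173 ± 26.6, 168 ± 22.6 and 122 ± 18.4 read pairs.

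MUC5AC, the gel-forming mucin of gastric surface epithelium and of precursor lesions of pancreatic cancer (chr11:1157953-1201138, plus strand), was close to absent. It had 0, 2.50 and 9 read pairs on the SMAD4-low side and 3.5, 7 and 10.5 on the other, at most 0.02 TPM. The row that split its reads evenly doubles these to 0, 5 and 18 against 7, 14 and 21. Library 26 was the highest of its side and within the range of the other side.

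MUC5B, the gel-forming mucin of airway and gallbladder (chr11:1223066-1262172, plus strand), had 0, 3 and 8 read pairs where SMAD4 was low and 3, 17 and 44 where it was not. In TPM the ranges overlapped more widely, 0 to 0.30 against 0.03 to 0.51, since library 3 reached 0.30 TPM with 8 read pairs at an effective length of 1263 bases. MUC6, the mucin of gastric glands and pancreatic ductules (chr11:1012823-1036718, minus strand), had at most 0.01 read pairs in any SMAD4-low library and at most 9.95 in the others. The row with equal values raises the highest, library 12, to 19.9 read pairs.

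The make-up of the mucin reads differed accordingly. MUC1 had the most read pairs of the 10 genes in all 14 libraries with SMAD4, where it held 66.8% to 90.2% of them (median 79.8%). Where SMAD4 was low it held 6.89% to 44.4% (median 20.5%), and MUC1 led in 4 libraries, MUC2 in 4, MUC4 in 2 and MUC13 in 2. With the further rows added, MUC2 led in 6 of these 12 libraries, MUC4 in 5 and MUC1 in 1, and MUC1 still led in all 14 others. By TPM, which divides by length and so favours the short MUC1, MUC1 led in 10 of 12. The summed TPM of the 10 genes was 1.71, 5.09 and 16.8 (lowest, median, highest) on the SMAD4-low side and 15.1, 40.4 and 61.8 on the other.

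**Figure D4:**
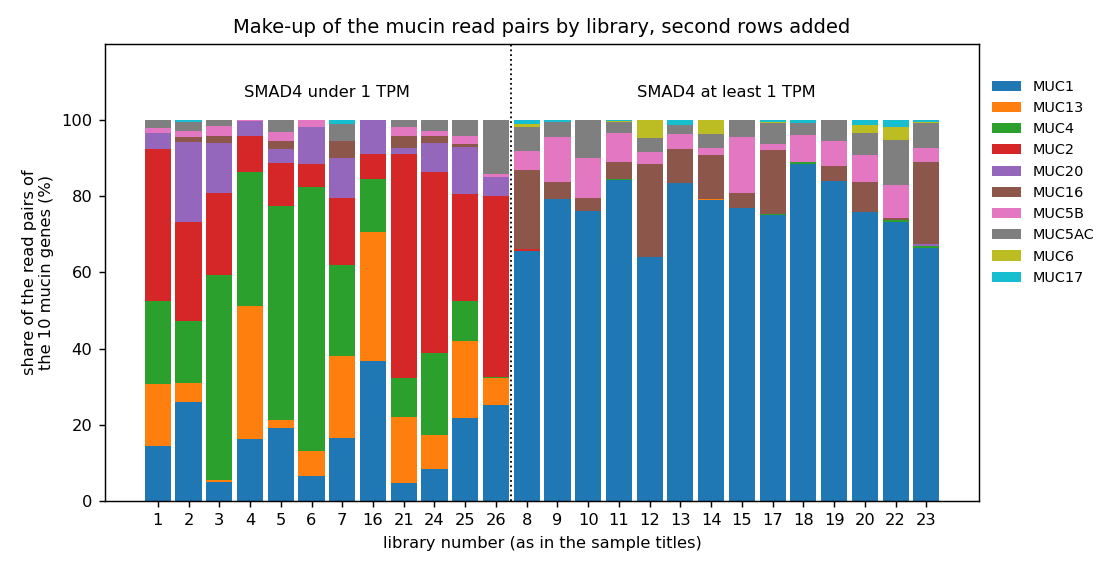
Share of the read pairs of the 10 mucin genes (y axis, %) that fell to each gene, per library, with the further rows added to MUC2, MUC4, MUC5AC and MUC6. MUC1 takes 64.0% to 88.5% in the 14 libraries at right and 4.79% to 36.8% in the 12 at left, where MUC2, MUC4 and MUC13 fill most of the rest.

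Single libraries stood apart by TPM for MUC1 and MUC13. Taken alone, only these 2 members reached 1 TPM, which the rule asks for, so no other member could be marked. Counting a library that was 4-fold over the median of the other libraries of its side and at 1 TPM or more, or 4-fold under a median of 1 TPM or more, 3 cases were found in 2 of the 10 genes, and 16.5% of the 19292 genes with at least 10 deposited counts in a library held such a case. MUC13 in library 4 reached 2.27 TPM, 4.76-fold over the median of 0.48. MUC1 in library 6 was at 0.550 TPM, 7.11-fold under the median of 3.91, and in library 21 at 0.683 TPM, 5.73-fold under it. MUC13 in library 4 kept its place in read pairs, 116 against a median of 24. The cases of MUC1 did not, at 10.5 and 13.7 read pairs against a median of 31.9, and their effective lengths were 795 and 1001 bases.

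The labels BxPC3 and Panc1 were also compared over all 26 libraries, the only groups the samples carry. By edgeR's quasi-likelihood test 0 of 16008 genes passed an adjusted p of 0.05 with an absolute log2 fold change over 1, and 367 genes (2.29%) had an unadjusted p under 0.05. Each label held libraries of both SMAD4 sides, and the difference between the sides is part of the spread within a label. The 0 calls thus do not show that the labels are alike. With the side as a covariate in edgeR's test, 0 genes passed and 1204 had an unadjusted p under 0.05. The lowest adjusted p was then 0.233 by edgeR's test, against 0.677. DESeq2 called 2 genes (0.00688%), none of them a mucin gene, and 2.33% had an unadjusted p under 0.05. Among the 14 libraries with SMAD4, 0 of 15161 genes passed edgeR's test, and an unadjusted p under 0.05 was found for 4.62%. Only MUC1, MUC5B and MUC16 passed the filter on low counts. MUC1 was at 0.683, 18.3 and 60.9 TPM in the 12 libraries labelled BxPC3 and at 0.550, 13 and 61.4 TPM in the 14 labelled Panc1, with a log2 fold change of 0.05 (Panc1 over BxPC3). The log2 fold change was -0.37 for MUC5B and 0.36 for MUC16, and the adjusted p was 1.0 for all 3 by this test. Without the filter MUC4 had the lowest unadjusted p of the 10 genes by edgeR, 0.0129 (adjusted p = 0.847), where 4.93% of all genes had one under 0.05.

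Among other mucins and mucin-like proteins, some were far more abundant than the 10 genes. Of 13 such genes 8 had at least 10 deposited counts, and 1 was higher on the SMAD4-low side and 2 on the other with no overlap of TPM, against 13.2% of all genes with such counts in each direction. MUC3A and MUC12, membrane mucins next to MUC17 on chromosome 7, were the 2. MUC3A was at 0 to 0.16 TPM against 0.72 to 36.7 TPM, and MUC12 at 0 to 0.54 TPM against 6.10 to 14.9 TPM. MUCL1, a small secreted mucin-like protein of glandular epithelium, was the 1, at 0.13 to 8.07 TPM against at most 0.12 TPM. MUC12 lies 1.22 kb from MUC3A and 1.13 kb from MUC17, which had almost no reads. CD164, a sialomucin of many cell types, had the highest level of the list, 219 to 388 TPM against 370 to 665 TPM, followed by PODXL at 61.6 to 210 TPM against 8.29 to 141 TPM, and the ranges of both overlapped.

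The enzymes that build the sugar chains of mucins included several that were near 0 where SMAD4 was present. Of 26 O-glycosylation enzymes, all with at least 10 deposited counts, 12 were higher where SMAD4 was low and 3 were lower with no overlap of TPM, against 13.2% of all genes with such counts in each direction. GALNT3, GALNT14 and GALNT5 start the chain by adding N-acetylgalactosamine. GALNT3 was at 51.1 to 109 TPM against at most 0.09 TPM, GALNT14 at 32.3 to 64.3 TPM against at most 0.72 TPM and GALNT5 at 9.53 to 27.3 TPM against at most 0.15 TPM. B3GNT3, which extends the core 1 chain, was at 47.6 to 91.6 TPM against 0.04 to 3.24 TPM. GALNT1 and GALNT2, widely expressed enzymes of the same first step, overlapped, with medians of 239 and 143 TPM against 217 and 148 TPM. GALNT7 overlapped at medians of 89.8 and 195 TPM, and C1GALT1C1, the chaperone of the core 1 enzyme, at 65.7 and 64.0 TPM. The 3 that were lower, named after their values were seen, were C1GALT1 (the core 1 enzyme itself, at 11.8 to 39.1 TPM against 52.1 to 108 TPM), B3GNT6 and ST3GAL2.

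Of 22 transcription factors of mucin-making epithelium, 18 had at least 10 deposited counts, and 6 were higher and 1 lower where SMAD4 was low with no overlap of TPM, against 13.2% of all genes with such counts in each direction. EHF and KLF5 are factors of epithelial cells. EHF was at 100.1 to 176 TPM against at most 0.59 TPM and KLF5 at 88.0 to 278 TPM against 0.10 to 1.30 TPM. GATA6, a factor of the classical subtype, was at 15.1 to 27.8 TPM against 0.04 to 1.34 TPM, and SPDEF, a driver of goblet cell differentiation, at 3.48 to 17.4 TPM against 0.02 to 0.94 TPM. XBP1, SOX9, FOXA2 and KLF4, the others of high level or difference, overlapped. GATA4, named after its values were seen, was the lower one, at 0.94 to 1.81 TPM against 5.95 to 15.6 TPM.

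Of 18 partners of mucin secretion 15 had at least 10 deposited counts. Where SMAD4 was low, 3 were higher (CEACAM5, CEACAM6 and CLCA4) and 2 lower (SYTL2 and FCGBP) with no overlap of TPM, near the 13.2% of all genes with such counts in each direction. SYTL2, which tethers secretory granules, was at 1.76 to 4.71 TPM against 39.5 to 149 TPM. CEACAM5, the carcinoembryonic antigen, was at 1.16 to 114 TPM against at most 0.08 TPM. LGALS3, a galectin that binds mucin sugars, and AGR2, the disulfide isomerase needed for MUC2 folding, overlapped, at medians of 100.5 and 38.08 TPM against 214 and 87.6 TPM. The median difference over each list (SMAD4-low side minus the other, log2 of TPM + 1, genes with at least 10 deposited counts) was 1.11 for the O-glycosylation enzymes, 0.84 for the transcription factors, 0.15 for the other mucins, -0.36 for the secretory partners and -0.01 for the 10 mucin genes, against 0.01 for all genes. That of the mucin genes is a median over both directions, from -3.07 for MUC1 to 0.62 for MUC13. Only MUC1 had a median of at least 1 TPM on a side, so the added 1 TPM keeps the other differences small.

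**Figure D5:**
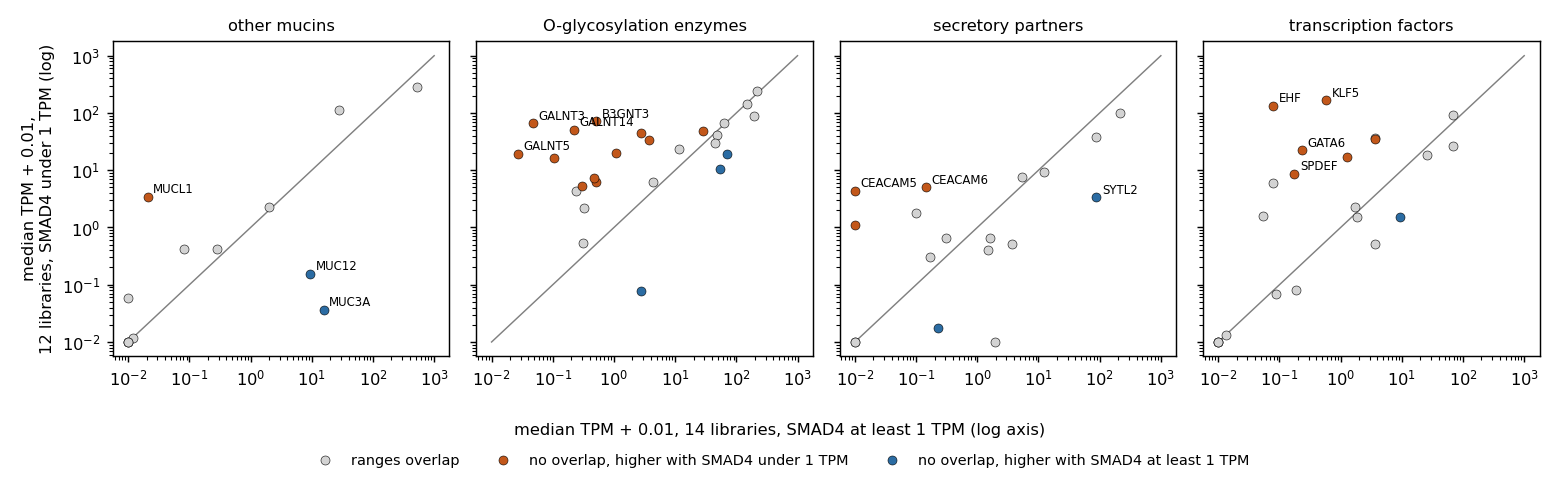
Median TPM plus 0.01 of the genes of 4 lists where SMAD4 was under 1 TPM (y axis, 12 libraries) against the other 14 libraries (x axis), both on log axes, with the line of equal values. Coloured points did not overlap between the sides. Of 26 O-glycosylation enzymes 12 lie above the line in orange, and MUC3A and MUC12 lie below it in blue.

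Within a side, genes were ranked by how closely they followed MUC1, the only member with a median of at least 1 TPM. Among the 14 libraries with SMAD4, PTK6, a kinase of epithelial cells, SPSB2 and RASGEF1A were nearest by TPM (Spearman's rho = 0.92, 0.89 and 0.89), and PTK6, CTSA and CLIP2 by read pairs set against the library total (0.87, 0.87 and 0.85). Among the 12 SMAD4-low libraries these were LTBP4 (0.96), VRK3 (0.95) and PPP1R13B (0.92) by TPM but ASS1 (0.83), RAB11FIP5 (0.83) and LRRC47 (0.80) by read pairs. These are the highest of 10163 and 10470 genes compared over 14 and 12 libraries, and the values of a library share its depth. Of the pairs of members compared within a side, MUC5B and MUC16 had the most extreme rho, -0.64 over the 14 libraries with SMAD4. The other pairs lay between -0.31 (MUC13 and MUC20) and 0.33 (MUC4 and MUC20), both over the 12 SMAD4-low libraries. MUC5B and MUC16 had few read pairs, and their rho, picked as the most extreme, is a description only.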

How the data were processed

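mRNA of 26 SCDCLs was sequenced once each. The authors assigned reads to GRCh38 transcripts with kallisto (0.46.1 in the submitters' processing notes) and summed them per gene with tximport. For 41078 genes the deposited values of each library are TPM, estimated counts rebuilt from TPM and mean length and scaled to the library total (27035724 to 34945608), effective lengths and 30 repeat estimates on redrawn reads. Of these rows, 36315 were matched to GENCODE 44 and 4763 were not. Groups came from the labels.

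Read pairs were computed as TPM times effective length, scaled to the deposited total. Means of the repeat estimates differed from them by 0.410% at the median for values over 100 and from the deposited counts by 3.87%. Rows sharing reads with a gene were those with a correlation of repeat estimates of at most -0.4 or at least 0.9 and a mean of at least 0.1 read pairs. Labels were compared with edgeR 4.0.16 (quasi-likelihood test, TMM, filterByExpr, Benjamini-Hochberg over all genes, rounded counts), with DESeq2 1.42.0 and limma 3.58.1 (R 4.3.3) as alternatives. Each replicate is 1 clone with 1 library, so p-values measure the spread between these clones and their libraries together. Over all 26 libraries this spread also holds the difference between the SMAD4 sides. The edgeR test was tested on simulated counts and recovered 199 of 200 genes changed 4-fold between the labels. The simulation held no SMAD4 sides, so it does not show the power of the test in these data. Python 3.11.15, pandas 2.3.3, numpy 2.4.6 and scipy 1.17.1 were used.

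The mucin genes and the lists were chosen with earlier results of these data known. The named genes were all members and, of each list, the 4 of highest median TPM and the 4 of largest difference between the sides, and for MUC1 the 3 genes most like it among genes with a median of at least 5 TPM, not all of which are printed. Alternatives were other normalizations, no filter, pseudocounts of 0.1 and 5 TPM, other thresholds, each SMAD4 side alone and leaving out each library. Read pairs and the added rows were chosen after seeing the data. Promoter windows are from RefSeq.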

Additional observations from a re-analysis of the deposited data

Results flagged for a closer look

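MUC1 in library 8, labelled Panc1 and with SMAD4, stood below the other 6 libraries of its label and side. It was at 16.5 TPM, whereas the others were at 41.0 to 61.4 TPM, and the gap to the nearest of them was 0.689 of the whole range of the 7 libraries on the log2(TPM + 1) scale. In read pairs it had 145 ± 18.3 (SD over 30 repeat estimates), next to 159 in library 10, at an effective length of 452 bases, the longest of the 14 libraries with SMAD4. Of 6 sets of libraries and genes that were tested this way, 1 stood out, and chance alone marks about 1 in 20.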

How the results depend on the processing

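By edgeR no alternative called a gene between the labels, whereas DESeq2 called 2. The log2 fold change of MUC1 between the labels, 0.05, changed sign with limma (-0.077), with the SMAD4 side as a covariate (-0.013) and in the SMAD4-low libraries alone (-0.40, with the further rows added too), and ran from -0.13 to 0.28 when each library was left out. That of MUC5B was 0.0099 on read pairs of the libraries with SMAD4 and ran from -0.64 to 0.0017 on leaving out a library, and that of MUC16 from -0.064 to 0.74. None of these passed the test, and the cause was not tested. The number of genes without overlap, 2, became 4 on read pairs with the further rows added and ran from 2 to 3 on leaving out a library, with 3 where library 22 was missing. The 3 single-library cases became 6 at a 3-fold limit, 1 at 6-fold, 18 on CPM with TMM factors, 8 at a minimum of 0.5 TPM, 8 on read pairs and 10 with the further rows added. Of the read-pair cases none was MUC1. Of the other values of these results 180 kept their direction and their side of the threshold. Among the counts of genes reaching a level and the differences of medians between the sides, 19 values moved and 15 did not. With a pseudocount of 0.1 TPM the log2 difference went from 0.62 to 2.67 for MUC13, 0.40 to 2.07 for MUC20, 0.20 to 1.33 for MUC4 and -0.20 to -1.25 for MUC5B. No such difference changed sign. Read pairs and the further rows were alternatives chosen after seeing the data. No paired analysis was possible because each library has a number of its own and the labels share none. Depth limited MUC5AC, MUC6 and MUC17, with at most 10.5, 9.95 and 4 read pairs.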
